A study of Mus musculus with 109 samples.

Results

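The genes described here encode serine/arginine-rich (SR) splicing factors, heterogeneous nuclear ribonucleoproteins (hnRNPs) and core subunits of the spliceosome. They were the genes whose symbols began with Srsf and a digit, with Hnrnp, with Sf3a or Sf3b and a digit, or with Snrp. This rule found 49 of the 15973 genes in the table: 10 SR proteins, 19 hnRNPs, 8 subunits of the SF3a and SF3b complexes and 12 Snrp genes. All were protein-coding genes in the GENCODE annotation of GRCm38 apart from Hnrnpa1l2-ps, which is a processed pseudogene. The single cells came from mouse cerebella at postnatal day 7, enriched on a Percoll gradient for granule cell progenitors (GCPs), captured on C1 Fluidigm chips and sequenced by Smart-seq. The labels give the strain as C57BL/6, while the study's methods name ICR pups. No cell was treated or genetically modified, and the sample labels placed the cells in 6 library groups of 18 or 19 cells. Cells were compared by Mki67, the gene of the proliferation marker KI67, and then by Dcx, the gene of the microtubule-associated protein doublecortin of newborn neurons. Mki67-high cells had at least 100 CPM of Mki67 (counts per 1000000 counts of the cell) and Mki67-low cells had under 10, which gave 32 and 75 cells and left 2 cells between. Library groups 1 to 6 held 4, 4, 8, 3, 8 and 5 Mki67-high cells and 15, 12, 10, 15, 10 and 13 Mki67-low cells, so that some class means rest on few cells.

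Introns are removed from pre-mRNA by the spliceosome, which assembles on each intron from small nuclear ribonucleoproteins (snRNPs). The Snrp genes encode proteins of these particles: Snrpa and Snrpc belong to U1, Snrpa1 and Snrpb2 to U2, and Snrpb, Snrpd1, Snrpd2, Snrpd3, Snrpe, Snrpf and Snrpg form the Sm ring shared by several snRNPs. SF3a and SF3b are parts of the U2 snRNP at the branch point, SR proteins mostly favor the use of exons to which they bind, and many hnRNPs oppose it. In the postnatal cerebellum GCPs divide in the external granule layer and then leave the cell cycle to become granule cells (GCs), and alternative splicing changes widely as neurons mature.

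The cells differed in depth and in the number of genes counted. Total counts per cell ran from 15071 to 8616017 with a median of 3604792, and the cell with the next lowest total had 1110182. The 2 cells between the Mki67 classes, of which one had 15071 counts, were both of library group 2 and entered neither class. A pair of Mki67-high cells, in library groups 3 and 6, had counts for 13533 and 12684 genes, while no other cell exceeded 6420. The mean number of genes counted was 5426 ± 2130 (SD, 32 cells) in Mki67-high cells and 4308 ± 640.2 (SD, 75 cells) in Mki67-low cells, and after thinning to 1110182 counts per cell it was 4323 and 3241. The part of this difference in the results below was not tested. In 4 cells, of which 3 were Mki67-high, at least 5 of 8 astroglial genes were at 50 CPM or more.

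The classes were checked with genes that did not define them. On the mean log2(CPM + 1) scale, averaged within each library group over the cells of one class, Top2a, a topoisomerase of dividing cells, was 8.26 ± 1.95 in Mki67-high and 2.50 ± 1.02 in Mki67-low cells (SD, n = 6 library groups). Pcna, a DNA replication clamp, was 4.71 ± 1.23 and 2.82 ± 1.07. Both were higher in Mki67-high cells in 6 of 6 library groups. Dcx was 7.17 ± 1.78 and 9.78 ± 0.58, and Tubb3, a neuronal tubulin, was 6.99 ± 1.18 and 9.21 ± 1.55; both were lower in 6 of 6. Rbfox3, which encodes the neuronal marker NeuN and is itself a splicing regulator, was 4.12 ± 1.15 and 4.85 ± 0.86 and was lower in 4 of 6. Summed CPM of 8 cycling genes ran from 1914 to 6062 over the library groups in Mki67-high cells and from 55.95 to 853.7 in Mki67-low cells. The granule lineage genes, 7 in all, were counted in both classes. For other cell types, summed levels were 99.45 to 2011 and 110.9 to 2509 CPM for 8 astroglial genes, 60.71 to 2451 and 227.7 to 1363 CPM for 7 oligodendrocyte lineage genes, and 0 to 28.05 and 36.08 to 802.5 CPM for 4 interneuron genes. Listed genes of microglia, endothelium and Purkinje cells summed to at most 144 CPM in any class of any library group.

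The genes spanned a wide range of levels. Counted in every cell were Srsf3, Hnrnpa2b1, Hnrnph1 and Hnrnpk, and 42 of the 49 genes had a count in at least 50% of the cells. Compared per kilobase of exon over all cells, Hnrnpa2b1, which encodes an abundant nuclear RNA-binding protein, had the highest level at 427.8 ± 178.2 CPM per kb (SD, n = 6 library groups). Srsf2 followed at 228.4 ± 56.63 and Srsf7 at 198.6 ± 72.29 CPM per kb, and these 2 did not differ by more than the spread between library groups. The highest Snrp gene was Snrpe at 131 ± 35.71 CPM per kb and the highest SF3 gene was Sf3b1, the largest SF3b subunit, at 93.48 ± 45.07 CPM per kb. At the other end, the lowest values in each family were 0.9592 ± 1.519 for Srsf4, 1.644 ± 1.933 for Sf3a2, 1.88 ± 1.653 for Snrpc and 0.06269 ± 0.0189 CPM per kb for Hnrnpa1l2-ps. Srsf4 had a count in 10 cells, 4 of them Mki67-high and 5 Mki67-low, and Hnrnpa1l2-ps in 23 cells.

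Splicing factor genes were mostly counted at higher levels in Mki67-high cells than in Mki67-low cells, but no single gene passed the test across all genes. The difference of mean log2(CPM + 1) between the classes, averaged over the 6 library groups, was above 0 for 48 of 49 genes, against 71.6% of all listed genes, and below 0 for 1, against 28.4%. Its median over the 49 genes was 1.19, against 0.16 over all listed genes, many of which were rarely counted. Among the 9084 genes that passed a filter on low counts the median was 0.43, and among the 47 splicing factor genes that passed it 1.19. The difference was above 0 in every library group for 13 of 49 genes, against 4.78% of all listed genes, and below 0 in every library group for 0 of 49, against 0.758%. Restricted to genes with a count in at least 50% of the cells, 41 of 42 mean differences were above 0, against 74.2%, and 11 of 42 genes were higher in every library group, against 12.8%. The 13 genes were Srsf1, Srsf2, Srsf6, Srsf7, Hnrnpa1, Hnrnpa2b1, Hnrnpa3, Hnrnpl, Hnrnpu, Snrpa1, Snrpe, Snrpf and Snrpg. Without the pair of cells with the most genes the count was 13, without the 4 cells with astroglial genes it was 13, and in cells thinned to one depth it was 12. Over the 5 library groups other than library group 1 it was 21. From the summed counts in place of cell means it was 3, for Srsf2, Snrpa1 and Snrpf. Shares of all listed genes under these altered settings are not given here, so these counts cannot be set against 4.78%. With 5 library groups the rule is easier to meet for any gene.

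**Figure D1:**
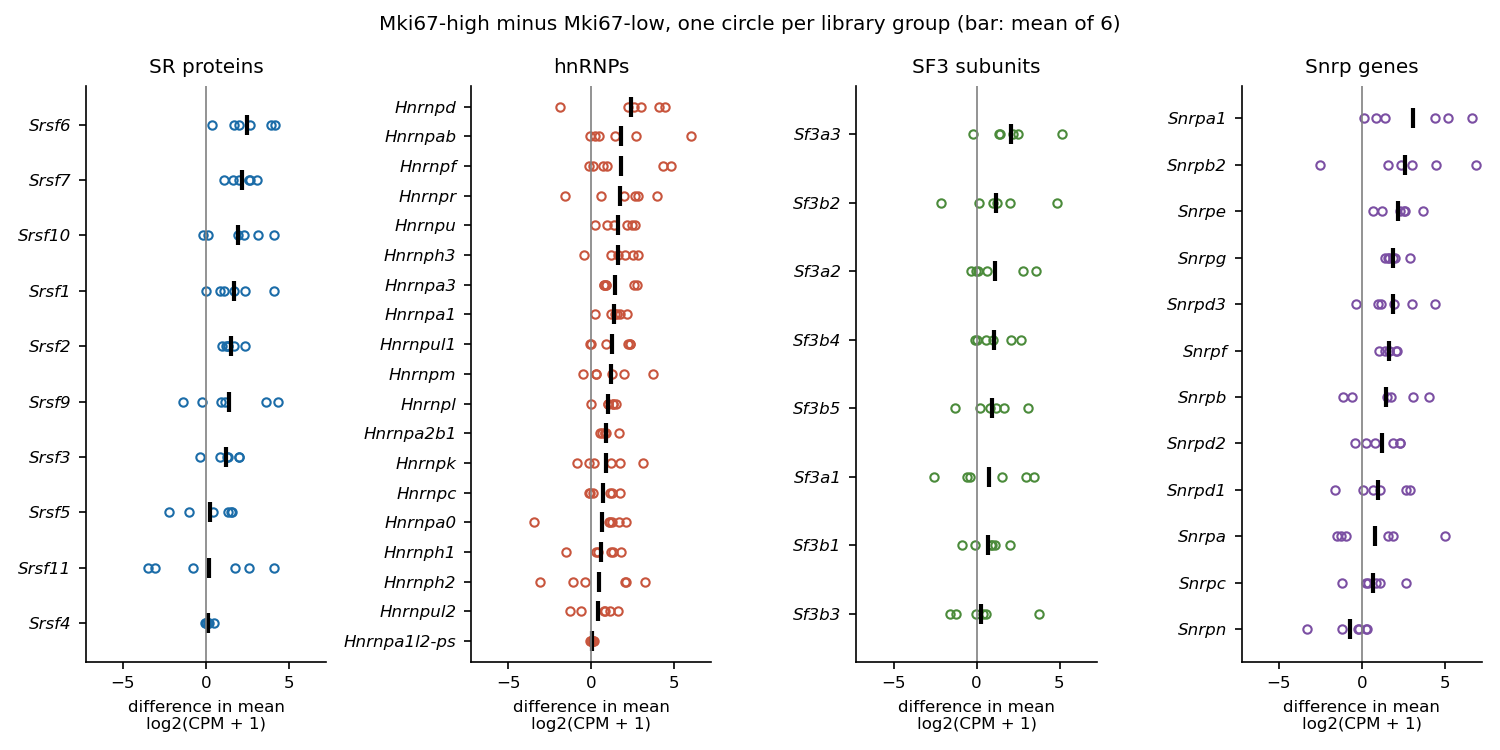
Difference in mean log2(CPM + 1) between Mki67-high and Mki67-low cells for the 49 genes in 4 families, with one circle for each of 6 library groups and a black bar for their mean. Of the 49 bars, 48 lie to the right of 0, and for 13 genes all 6 circles do.

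The test across all genes was the edgeR quasi-likelihood test on summed counts, with one sum per class and library group. At an adjusted p-value under 0.01 it called 2 of 9084 genes, Tacc3 and Cdc20, both higher in Mki67-high cells (0.022%), and 0 of the 47 splicing factor genes that passed the filter on low counts. Srsf4 and Hnrnpa1l2-ps did not pass it. The cycling genes Top2a and Pcna, with log2 fold changes of 3.45 and 1.13, were not called either (edgeR adjusted p = 0.331 and 0.806). A gene that was not called is thus not shown to be equal between the classes. At an unadjusted p under 0.05, edgeR gave 267 higher (2.94%) and 399 lower genes (4.39%), of which Snrpa1, higher, was the only one of the 47. DESeq2 on the same sums gave 110 higher (1.21%) and 60 lower genes (0.661%) at an adjusted p under 0.01, with 0 of these 47. The median log2 fold change in the sums was 0.51 over the 47 genes and -0.18 over all genes tested, and it was above 0 for 36 of 47, against 45.2% of all genes tested. The same 6 pairs of class means tested with limma, library group as a block, called 110 higher (1.21%) and 4 lower genes (0.044%) at an adjusted p under 0.01, with 0 splicing factor genes. At an adjusted p under 0.05 limma gave 3 of the 47, Snrpa1 (adjusted p = 0.0179), Srsf7 (adjusted p = 0.031) and Srsf6 (adjusted p = 0.0497), all higher, against 3.52% of all genes tested, and 0 lower, against 0.176%. Nothing in the labels says that the library groups came from separate animals, so these p-values measure the spread between library groups.

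Sums of reads and means over cells weight the cells differently, and for 10 genes the signs were opposite: Srsf5, Srsf11, Hnrnpa0, Hnrnph2, Hnrnpul1, Hnrnpul2, Sf3a1, Sf3b3, Snrpa and Snrpd1 had log2 fold changes below 0 in the sums and mean differences above 0. The largest single contributor among Mki67-low cells held 55.65% of the class's Hnrnpul1 counts, 49.21% of its Hnrnpul2 counts, 43.62% of its Sf3a1 counts and 43.08% of its Sf3b3 counts.

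Among SR proteins, Srsf1, Srsf2, Srsf6 and Srsf7 were higher in Mki67-high cells in every library group. Srsf2, which binds exonic enhancers, had mean log2(CPM + 1) values of 9.77, 8.58, 9.38, 8.92, 8.68 and 9.84 in Mki67-high cells of library groups 1 to 6 and of 8.47, 7.36, 7.68, 6.58, 7.71 and 8.52 in Mki67-low cells. The lowest Mki67-high value lay above the highest Mki67-low value, a separation shown by 3 of the 49 genes (Srsf2, Snrpf and Snrpg) and by 1.39% of all listed genes, while the reverse separation was shown by 0 of 49 and by 0.0877%. The mean difference for Srsf2 was 1.48 ± 0.49 (SD, n = 6; exact sign-flip test, two-sided, p = 0.031, the smallest that 6 pairs allow), and its log2 fold change in the sums was 0.65 ± 0.41 (SE, edgeR adjusted p = 0.758). Any 6 differences of one sign give this sign-flip p, so it adds nothing to their shared direction. Srsf2 lies on chromosome 11 (GRCm38, 116849901 to 116853094, minus strand), and its exons overlap those of Mettl23 and Mfsd11 on the other strand, from which its reads cannot be told apart where counting ignored strand.

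Srsf7, whose protein also takes part in mRNA export and 3′ end choice, was at 7.64, 7.36, 7.69, 8.05, 8.78 and 9.73 in Mki67-high cells of library groups 1 to 6 and at 5.05, 6.30, 4.64, 6.42, 6.16 and 7.71 in Mki67-low cells. The classes overlapped because Mki67-low cells of library group 6 were above Mki67-high cells of library groups 1, 2 and 3, while within each library group Mki67-high cells were higher. The mean difference was 2.16 ± 0.74. Srsf6 and Srsf1 also differed in one direction in every library group, by 2.46 ± 1.43 and 1.68 ± 1.41. Srsf7, Srsf6 and Srsf1 are given for this comparison after their values were seen. For Srsf1, the prototype of the family, the difference in library group 4 was 0.02.

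Other SR protein genes did not hold one direction. Srsf10, known for repressing splicing when dephosphorylated, was higher in 5 of 6 library groups, with a mean difference of 1.90 ± 1.67. Srsf9 was higher in 4 of 6, by 1.39 ± 2.22, and had the largest log2 fold change of its family in the sums, 1.38 ± 1.02 (SE, edgeR adjusted p = 0.798). Srsf11 was higher in 3 library groups and lower in 3, from -3.50 in library group 1 to 4.11 in library group 3, and its log2 fold change in the sums was -1.05 ± 0.66 (SE, edgeR adjusted p = 0.758). Srsf5 had a mean difference of 0.25 ± 1.58 with 4 of 6 library groups higher and a log2 fold change of -0.07 ± 0.84 in the sums, which was above 0 with other size factors. Srsf3, counted in every cell, was 9.19 ± 0.74 in Mki67-high and 8.02 ± 0.61 in Mki67-low cells. Summed over the 10 SR protein genes, the class totals were 5081 to 5736 CPM in Mki67-high and 3270 to 4846 CPM in Mki67-low cells, so the totals of the classes did not overlap. The totals of both classes overlapped for the hnRNPs (7321 to 12450 and 4767 to 9433 CPM), the SF3 genes (1300 to 4317 and 805.7 to 2896 CPM) and the Snrp genes (738.7 to 1897 and 638.6 to 1281 CPM). Over all 49 genes they were 15410 to 20160 and 10840 to 15420 CPM, which also overlapped. Within library groups, the Mki67-high total was the higher one throughout for the SR proteins, the hnRNPs, the Snrp genes and all 49 genes. For the SF3 genes it was lower in library group 3 (1499 against 1550 CPM) and library group 5 (1726 against 2896 CPM). These totals are given as a description, without a test.

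**Figure D2:**
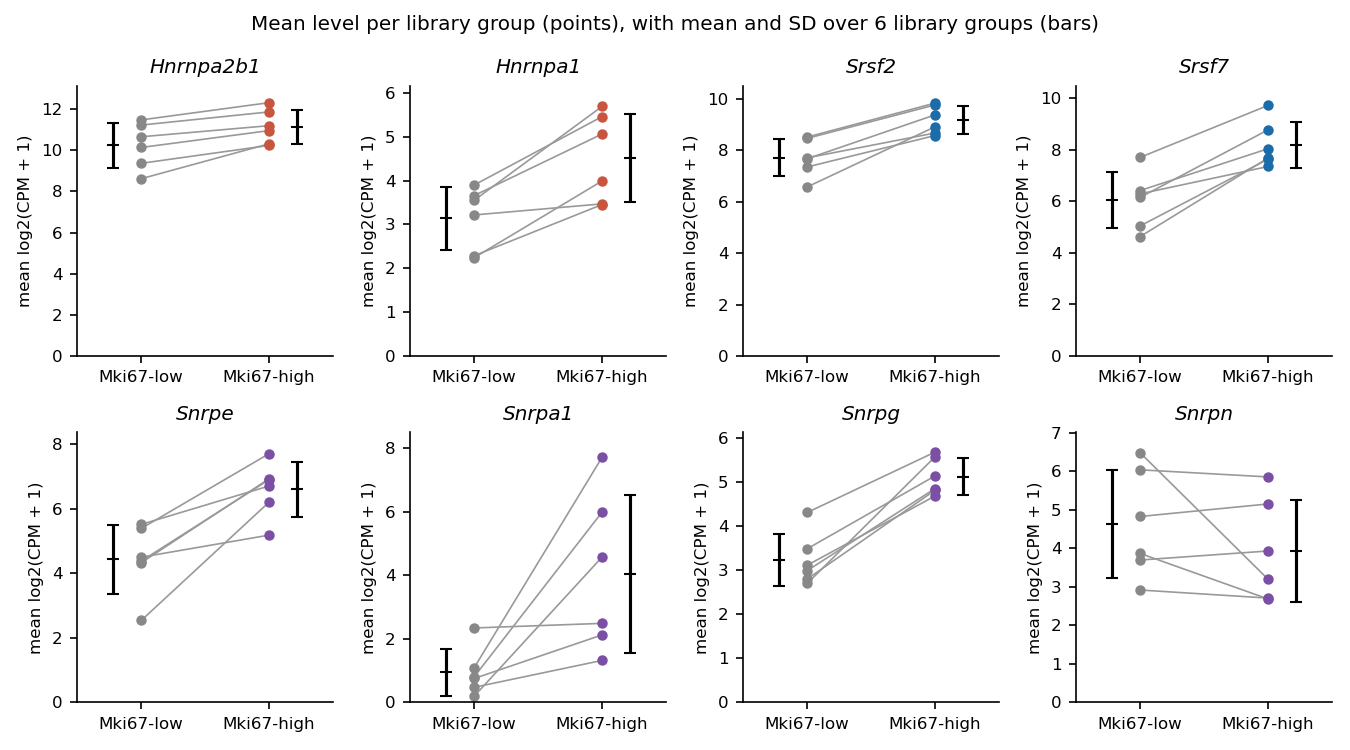
Mean log2(CPM + 1) of 8 genes in Mki67-low and Mki67-high cells, with a line joining both classes of each of the 6 library groups and bars for the mean and SD. The lines run upward in every library group for 7 of the genes, and for Snrpn they run in both directions. These 7 were picked from the genes found higher in every library group.

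Among hnRNPs, Hnrnpa2b1, Hnrnpa1, Hnrnpa3, Hnrnpl and Hnrnpu were higher in Mki67-high cells in every library group. For Hnrnpa2b1 the mean log2(CPM + 1) was 10.24, 10.96, 10.32, 12.32, 11.87 and 11.20 in Mki67-high cells and 9.37, 10.14, 8.62, 11.48, 11.23 and 10.66 in Mki67-low cells of library groups 1 to 6. The levels of the library groups differed more from each other than the classes did, and the difference within a library group was above 0 in each, with a mean of 0.90 ± 0.41. In the sums the log2 fold change was 0.28 ± 0.37 (SE, edgeR adjusted p = 0.9), and it was below 0 with limma-voom and when cells with no Mki67 count formed the low class. Hnrnpa2b1 lies on chromosome 6 from 51460932 to 51469894 on the minus strand.

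Hnrnpa1, which encodes a shuttling protein that antagonizes SR proteins at splice sites, was at 3.99, 3.47, 3.45, 5.46, 5.06 and 5.69 in Mki67-high cells and at 2.24, 3.22, 2.29, 3.90, 3.66 and 3.55 in Mki67-low cells. It was higher in each library group, by 1.38 ± 0.64 on average, although 28.2% of its 50-base words also occur in transcripts of other genes, so that reads could be shared with its copies. Its pseudogene Hnrnpa1l2-ps had at most traces of counts, at 0.11 ± 0.10 and 0.06 ± 0.02. Hnrnpu, Hnrnpa3 and Hnrnpl, chosen after their values were seen, were higher in every library group by 1.63 ± 0.95, 1.44 ± 0.96 and 1.01 ± 0.53. For Hnrnpl the difference in library group 1 was 0.0043.

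Hnrnph3 had the largest log2 fold change of the hnRNPs in the sums, 0.90 ± 0.99 (SE, edgeR adjusted p = 0.877), and was higher in 5 of 6 library groups. Hnrnpul1 and Hnrnpul2, which encode relatives of hnRNP U, had the lowest, -1.02 ± 1.12 and -0.73 ± 1.46, and each became positive without library group 2, at 0.54 and 0.55. By cell means both were higher in 4 of 6 library groups. The remaining 10 hnRNP genes had mean differences from 0.47 for Hnrnph2 to 2.41 for Hnrnpd, which encodes the AU-rich element binding protein AUF1, and none had one direction in every library group.

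Promoters of 3 genes that were higher in every library group are shown, chosen after the values were seen, for the CCAAT letters that 7 of these 13 genes held. RefSeq promoters (GRCm38.p6) were matched by symbol for 43 of the 49 genes, with 60 starts, and the entries of Hnrnpa1l2-ps, Hnrnpul2, Sf3b4, Sf3b5, Snrpb and Snrpd1 were missing. The 250 bases before each start were searched on both strands for the letters CCAAT, for the E2F-type letters TTCCCGC, for the ETS-type letters CCGGAAG, for the palindromic NRF1 motif and for the letters TATAAA. The letters CCAAT were found in 45% of the 60 promoters and in 33.8% of all 32851 promoters. Among the 14 promoters of the 13 genes higher in every library group CCAAT was found in 57.1%, the E2F-type letters in 21.4%, the ETS-type letters in 14.3%, the NRF1 motif in 0% and TATAAA in 7.14%. Hnrnpa2b1 entered with more than one start, each holding CCAAT and the E2F-type letters. Counted by gene, CCAAT was found in 7 of these 13 genes and in 22 of all 43. The E2F-type letters were found in 2 of the 13 and in 8 of the 43. In the 60 promoters and in all promoters, the ETS-type letters were found in 30% and 6.91%, the E2F-type letters in 16.7% and 3.82%, the NRF1 motif in 1.67% and 0.782%, and TATAAA in 10% and 12.4%. The median GC content was 60.4% in the 60 promoters and 52.4% in all promoters, and its part in these shares was not tested. In the sequences below, capitals mark matches, and bases that are exons on either strand were left out.

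Hnrnpa2b1, chr6:51469895-51470144, minus strand: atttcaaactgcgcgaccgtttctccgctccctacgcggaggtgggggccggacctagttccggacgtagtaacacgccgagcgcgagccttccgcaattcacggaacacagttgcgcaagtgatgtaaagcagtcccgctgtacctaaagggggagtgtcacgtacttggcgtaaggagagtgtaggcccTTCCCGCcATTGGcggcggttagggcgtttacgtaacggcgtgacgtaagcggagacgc
Hnrnpa1, chr15:103240147-103240396, plus strand: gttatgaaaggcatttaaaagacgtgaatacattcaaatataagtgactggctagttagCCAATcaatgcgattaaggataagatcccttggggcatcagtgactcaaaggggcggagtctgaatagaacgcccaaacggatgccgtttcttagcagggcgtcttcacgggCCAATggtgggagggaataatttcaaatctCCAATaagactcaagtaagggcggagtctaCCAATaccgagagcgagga
Srsf2, chr11:116853095-116853294, minus strand: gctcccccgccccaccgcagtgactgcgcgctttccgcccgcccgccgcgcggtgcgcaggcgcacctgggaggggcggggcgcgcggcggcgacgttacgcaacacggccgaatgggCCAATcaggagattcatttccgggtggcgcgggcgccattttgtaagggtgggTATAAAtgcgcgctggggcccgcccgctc

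The Hnrnpa2b1 promoter held the E2F-type letters 59 bases and a CCAAT on the other strand 51 bases before the start. Hnrnpa1 held CCAAT at 4 places, 191, 79, 49 and 19 bases before its start, and Srsf2 held CCAAT 82 and TATAAA 29 bases before its start. These are matches of letters and were not tested for binding.

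The SF3 genes showed no member with one direction in every library group, although all 8 mean differences were above 0. Sf3a3, Sf3b2, Sf3b4 and Sf3b5 were higher in 5 of 6 library groups. Sf3b1, which contacts the pre-mRNA at the branch point, was at 9.01, 6.14, 8.02, 8.01, 9.45 and 8.11 in Mki67-high cells and at 8.05, 5.03, 6.01, 7.13, 10.35 and 8.19 in Mki67-low cells of library groups 1 to 6. Library groups 5 and 6 went against the other 4, and the mean difference was 0.66 ± 1.01. Sf3a2 and Sf3b4 had the largest log2 fold changes of the family, 2.68 ± 1.58 (SE, edgeR adjusted p = 0.731) and 1.97 ± 1.24 (SE, edgeR adjusted p = 0.758). Both were low genes: Sf3a2 reached 10 CPM in 6 of 32 Mki67-high and 4 of 75 Mki67-low cells, and Sf3b4 in 8 and 6 cells. Sf3a1 and Sf3b3 had the lowest, -0.92 ± 1.52 and -1.26 ± 1.50, and their mean differences were 0.73 ± 2.32 and 0.29 ± 1.91. The largest mean difference of the family was that of Sf3a3, 2.08 ± 1.78.

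Snrp genes held the largest differences between the classes. Snrpa1, which encodes the U2 protein A′, was at 2.49, 2.13, 4.58, 7.72, 1.32 and 6.00 in Mki67-high cells and at 2.35, 0.75, 0.20, 1.09, 0.48 and 0.81 in Mki67-low cells of library groups 1 to 6. The difference was above 0 in every library group and ran from 0.14 in library group 1 to 6.63 in library group 4, with a mean of 3.09 ± 2.66. Snrpa1 reached 10 CPM in 16 of 32 Mki67-high cells and in 9 of 75 Mki67-low cells. In the sums its log2 fold change was 2.86 ± 1.34 (SE, unadjusted p = 0.0478, edgeR adjusted p = 0.674). It lies on chromosome 7 from 66059003 to 66074587 on the plus strand, and its exons overlap Gm45213 on the same strand.

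Snrpb2, the partner of Snrpa1 in the U2 snRNP, was at 8.87, 6.32, 4.55, 1.72, 7.06 and 5.34 in Mki67-high cells and at 1.97, 3.98, 1.54, 4.24, 2.58 and 3.78 in Mki67-low cells. It was higher in 5 of 6 library groups, by 2.63 ± 3.15 on average, and in library group 4 the difference was -2.52. Library group 4 was thus the one with the largest difference for Snrpa1 and the only one below 0 for Snrpb2, and its Mki67-high means rest on 3 cells. In the sums the log2 fold change of Snrpb2 was 1.67 ± 1.01 (SE, edgeR adjusted p = 0.752).

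Of the Sm ring genes, Snrpe, Snrpf and Snrpg were higher in every library group, and Snrpb, Snrpd1, Snrpd2 and Snrpd3 in 4 or 5 of 6. Snrpe was at 5.18, 6.70, 6.93, 7.70, 6.20 and 6.90 in Mki67-high cells and at 4.50, 5.51, 4.33, 5.39, 2.54 and 4.38 in Mki67-low cells, with a mean difference of 2.16 ± 1.07 and a log2 fold change in the sums of 0.17 ± 0.69 (SE, edgeR adjusted p = 0.98). In each library group Snrpe was thus higher by cell means, while its sums differed by less than their error. Snrpg was at 5.68, 5.58, 5.14, 4.82, 4.86 and 4.69 and at 4.31, 2.70, 3.49, 2.80, 2.99 and 3.12, and the classes did not overlap. Snrpf was at 2.38, 2.95, 1.80, 2.66, 2.16 and 3.75 and at 1.32, 1.30, 0.43, 0.57, 0.53 and 1.61, again without overlap. The differences of Snrpg and Snrpf, genes chosen after their values were seen, were 1.89 ± 0.53 and 1.66 ± 0.41 (SD, n = 6). For Snrpf, 89.5% of the 50-base words also occur in transcripts of other genes on either strand, including the overlapping Ccdc38 and 4933408J17Rik, so its counts are uncertain.

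The U1 genes were less regular. Snrpc, the U1 protein that binds near the 5′ splice site, was higher in 5 of 6 library groups, by 0.67 ± 1.25. Its log2 fold change in the sums was 0.95 ± 1.50 (SE, edgeR adjusted p = 0.917), and it turned to -0.16 without library group 1. Snrpa, which encodes the U1 protein A, was higher in 3 library groups and lower in 3, with a mean difference of 0.79 ± 2.53 and a log2 fold change of -1.57 ± 1.55 in the sums that turned to 0.02 without library group 3. Snrpn, an imprinted gene whose SmN protein replaces SmB/B′ in neurons, was the only gene of the 49 with a mean difference below 0. It was at 3.93, 2.69, 5.15, 2.71, 3.20 and 5.86 in Mki67-high cells and at 3.70, 3.87, 4.83, 2.92, 6.48 and 6.04 in Mki67-low cells, with a mean difference of -0.72 ± 1.37. In 4 of 6 library groups Mki67-low cells were higher, mainly in library group 5. Its exons overlap those of Snurf on the same strand, with which its reads may be shared.

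The share of cells in which a gene was counted also differed. The median total was 4157698 counts in Mki67-high and 3580460 in Mki67-low cells, so each cell was thinned to 1110182 counts, which every cell of both classes had. The share of cells with a count was then higher among Mki67-high cells for 42 of 49 genes, lower for Srsf5, Hnrnpc and Snrpn, and equal for 4. The 42 were 85.7% of the 49 genes, against 78.1% of all listed genes. Among genes with a count in at least 50% of the cells it was higher for 83.3% of the splicing factor genes, against 74.7%. The median share of cells over the 49 genes was 87.5% in Mki67-high and 68% in Mki67-low cells, a median difference of 12.88 percentage points, against 5.375 over all listed genes and 7.458 over genes with a count in at least 50% of the cells.

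**Figure D3:**
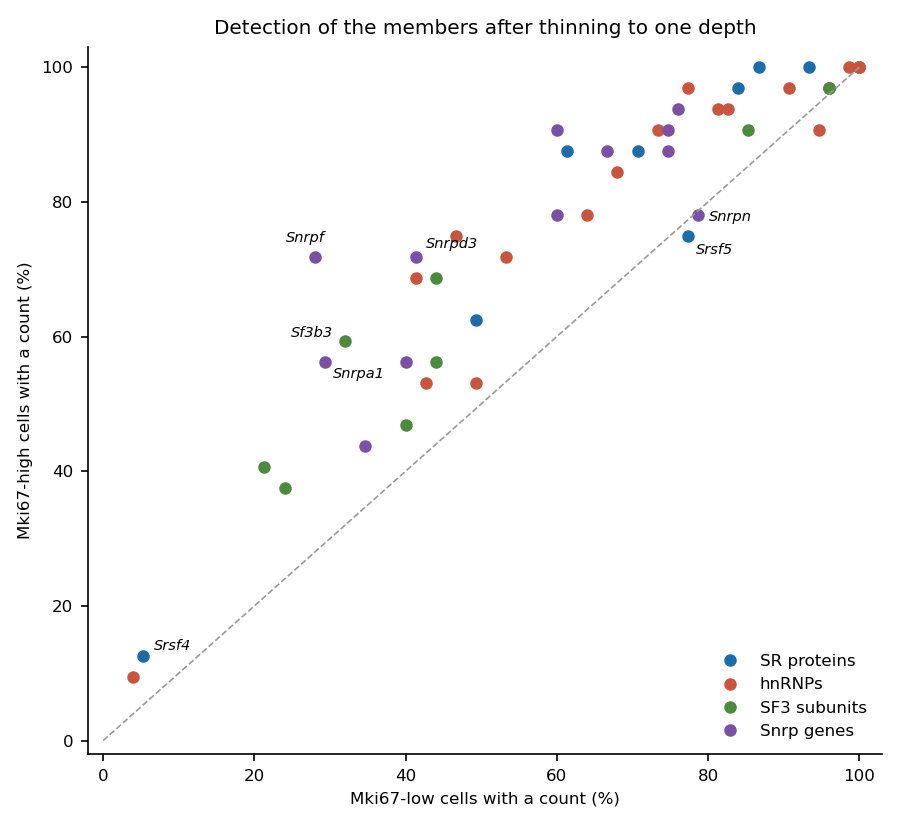
Percentage of Mki67-high cells (vertical axis) and of Mki67-low cells (horizontal axis) with a count for each of the 49 genes after thinning to one depth, with colors for the 4 families and a dashed line of equality. Of the points, 42 lie above the line, with Snrpf at 71.88% and 28% among the farthest from it.

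At full depth Snrpf was counted in 24 of 32 Mki67-high cells (75%, 95% Wilson interval 57.89 to 86.75%) and in 26 of 75 Mki67-low cells (34.67%, 24.88 to 45.95%). Snrpa1 was counted in 59.38% (42.26 to 74.48%) and 42.67% (32.10 to 53.95%), and these intervals overlap. The intervals treat the cells of a class as independent and leave out the spread between library groups. The libraries carry no molecular identifiers. Snrpa1 thus differed less in how many cells had any count than in how many reached 10 CPM.

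The second comparison was by Dcx within Mki67-low cells. The 75 Mki67-low cells were split at the median Dcx of their own library group into 36 Dcx-high cells, at 1657 to 15830 CPM of Dcx, and 39 Dcx-low cells, at 0.9636 to 2527 CPM. Library groups 1 to 6 held 7, 6, 5, 7, 5 and 6 Dcx-high cells and 8, 6, 5, 8, 5 and 7 Dcx-low cells. Of the cycling genes, Top2a was 2.15 ± 1.27 in Dcx-high and 2.84 ± 1.15 in Dcx-low cells, and Pcna was 2.14 ± 1.15 and 3.42 ± 1.79, each lower in Dcx-high cells in 5 of 6 library groups. The log2 fold change of Top2a in the sums was -2.39 ± 1.49 (SE, edgeR adjusted p = 0.998). Mki67 was 0.60 ± 0.40 and 0.87 ± 0.52 and was lower in 3 of 6, and the summed CPM of the 8 cycling genes was 80.65 to 702.2 and 38.84 to 1236. The part of cycling in the results was not tested. Between these classes splicing factor genes differed in both directions. The mean difference was above 0 for 20 of 49 genes and below 0 for 29, against 43.9% and 54.3% of all listed genes. It was below 0 in every library group for 3 of 49 genes, Sf3b5, Snrpd2 and Snrpf, against 1.06% of all listed genes, and above 0 in every library group for 0 of 49, against 0.651%. Over the library groups other than library group 1, 3 or 6 the genes with one direction in every library group numbered 5, 6 and 7. A rule over fewer library groups is easier to meet for any gene, and its share over all listed genes is not given here. The summed CPM of 8 astroglial genes was 51.74 to 393.9 in Dcx-high and 112.3 to 4143 in Dcx-low cells, that of 7 oligodendrocyte lineage genes 5.013 to 999.5 and 108.8 to 1669, and that of 4 interneuron genes 6.185 to 1468 and 0 to 198.5. The part of these genes in the results was not tested.

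By edgeR on the sums, 0 of 6573 genes were called at an adjusted p under 0.01 (0%). At an unadjusted p under 0.05, 117 genes were higher (1.78%), among them Hnrnpul1, and 177 lower (2.69%), among them Snrpc and Sf3a3. DESeq2 gave 23 higher (0.35%) and 30 lower genes (0.456%) at an adjusted p under 0.01, with 0 of the 46 splicing factor genes that passed the filter. It returned no p-value for some genes, among them Hnrnpul1 and Snrpd1, and these were counted as not called. The median log2 fold change was -0.18 over the 46 genes and 0.03 over all genes tested, and it was above 0 for 19 of 46, against 50.7%. Srsf4, Sf3a2 and Hnrnpa1l2-ps did not pass the filter on low counts. The Mki67-low cells enter both comparisons, so the values of one are not independent of the other.

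**Figure D4:**
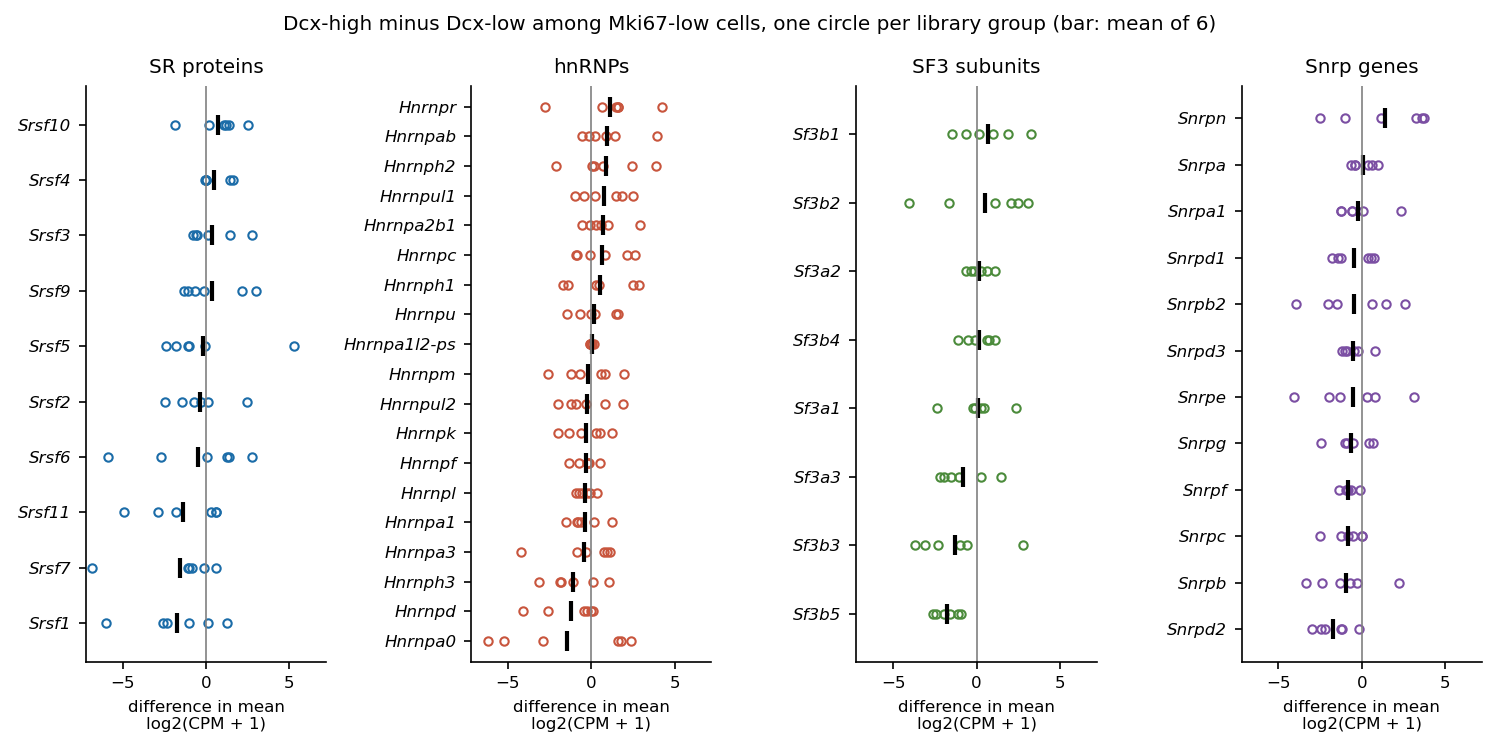
Difference in mean log2(CPM + 1) between Dcx-high and Dcx-low cells among Mki67-low cells for the 49 genes, with one circle for each of 6 library groups and a black bar for their mean. The bars lie on both sides of 0 and all 6 circles lie below 0 for Sf3b5, Snrpd2 and Snrpf.

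Sf3b5, a small SF3b subunit, was at 1.52, 0.64, 0.10, 0.24, 0.11 and 1.17 in Dcx-high cells and at 2.63, 2.62, 2.72, 2.70, 1.68 and 2.11 in Dcx-low cells of library groups 1 to 6. The highest Dcx-high value lay below the lowest Dcx-low value, which held for 1 of 49 genes and for 0.0751% of all listed genes; the reverse held for 0 of 49 and for 0.031%. The mean difference was -1.78 ± 0.69 (exact sign-flip test, two-sided, n = 6, p = 0.031, the smallest that 6 pairs allow), and the log2 fold change in the sums was -3.16 ± 1.81 (SE, edgeR adjusted p = 0.998). Any 6 differences of one sign give this sign-flip p, so it adds nothing to their shared direction. Sf3b5 reached 10 CPM in 2 of 36 Dcx-high and 12 of 39 Dcx-low cells. One Dcx-high cell held 91.69% of that class's Sf3b5 counts.

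Snrpd2 and Snrpf, named after their values were seen, were lower in Dcx-high cells in every library group, with mean differences of -1.70 ± 1.03 and -0.81 ± 0.42. Snrpd2 was at 3.51, 3.49, 1.88, 1.09, 0.06 and 1.20 in Dcx-high cells and at 3.68, 4.68, 3.11, 3.27, 3.07 and 3.63 in Dcx-low cells. Its classes overlapped through library groups 1 and 2.

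The largest log2 fold changes in the sums were those of Snrpc, at -4.44 ± 1.52 (SE, unadjusted p = 0.0092, edgeR adjusted p = 0.998), Sf3a3, at -4.38 ± 2.03, and Hnrnpul2, at 3.46 ± 1.80. DESeq2 on the same sums gave an adjusted p of 0.0142 for Snrpc, just over the limit of 0.01, and of 0.137 for Sf3a3. By cell means Snrpc and Sf3a3 were each lower in 4 of 6 library groups, with mean differences of -0.85 ± 0.96 and -0.83 ± 1.43, and Hnrnpul2 had a mean difference of -0.27 ± 1.43, opposite in sign to its sum. Snrpc was counted in 16 of 36 Dcx-high and 20 of 39 Dcx-low cells, of which 7 Dcx-low cells reached 10 CPM, and 1 cell held 54.51% of the Dcx-low counts. For Hnrnpul2, 1 cell held 56.06% of the Dcx-high counts.

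Among SR proteins, Srsf1 and Srsf7 had the lowest log2 fold changes, -1.43 ± 1.02 and -0.51 ± 0.65 (SE, edgeR adjusted p = 0.998 for both), and Srsf10 and Srsf3 the highest, 0.66 ± 0.80 and 0.65 ± 0.61. Srsf7 was lower in Dcx-high cells in 5 of 6 library groups, with a difference of -6.86 in library group 5. Without library group 5, Srsf3 had a log2 fold change of -0.19. Among hnRNPs the lowest were Hnrnpa1 and Hnrnpd, at -1.01 ± 1.30 and -0.96 ± 1.15, and the second highest was Hnrnpul1, at 2.95 ± 1.40, of whose Dcx-high counts 67.62% came from 1 cell. In the SF3 family Sf3b4 and Sf3b2 had the highest values, 1.79 ± 1.34 and 0.84 ± 1.11. Of the Snrp genes, Snrpb2 was the second lowest at -2.35 ± 1.57, and Snrpn and Snrpa1 were the highest at 0.43 ± 1.09 and 0.41 ± 1.85; Snrpa1 turned to -4.32 without library group 1. Hnrnpa2b1 differed by 0.68 ± 1.22 in the means and by 0.03 ± 0.40 in the sums.

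Set side by side, the 3 kinds of cell gave an order for each gene. The mean was highest in Mki67-high cells for 44 of 49 genes, in Dcx-low cells for Srsf11, Hnrnpa0 and Sf3b3, and in Dcx-high cells for Srsf4 and Snrpn. Over all listed genes other than Mki67 and Dcx, 59.2% were highest in Mki67-high, 20.7% in Dcx-low and 20.1% in Dcx-high cells. Srsf4 had a count in only 4 of 36 Dcx-high and 1 of 39 Dcx-low cells. Mean levels ran downward in the order Mki67-high, Dcx-low, Dcx-high for 26 of 49 genes (53.1%), against 33.6% of all listed genes and 36.5% of genes with a count in at least 50% of the cells. In this order were 10 of 12 Snrp genes, 5 of 10 SR proteins, 9 of 19 hnRNPs and 2 of 8 SF3 genes. The Snrp genes outside it were Snrpa and Snrpn. These counts are descriptions, since the families and the order were examined with the values known.

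**Figure D5:**
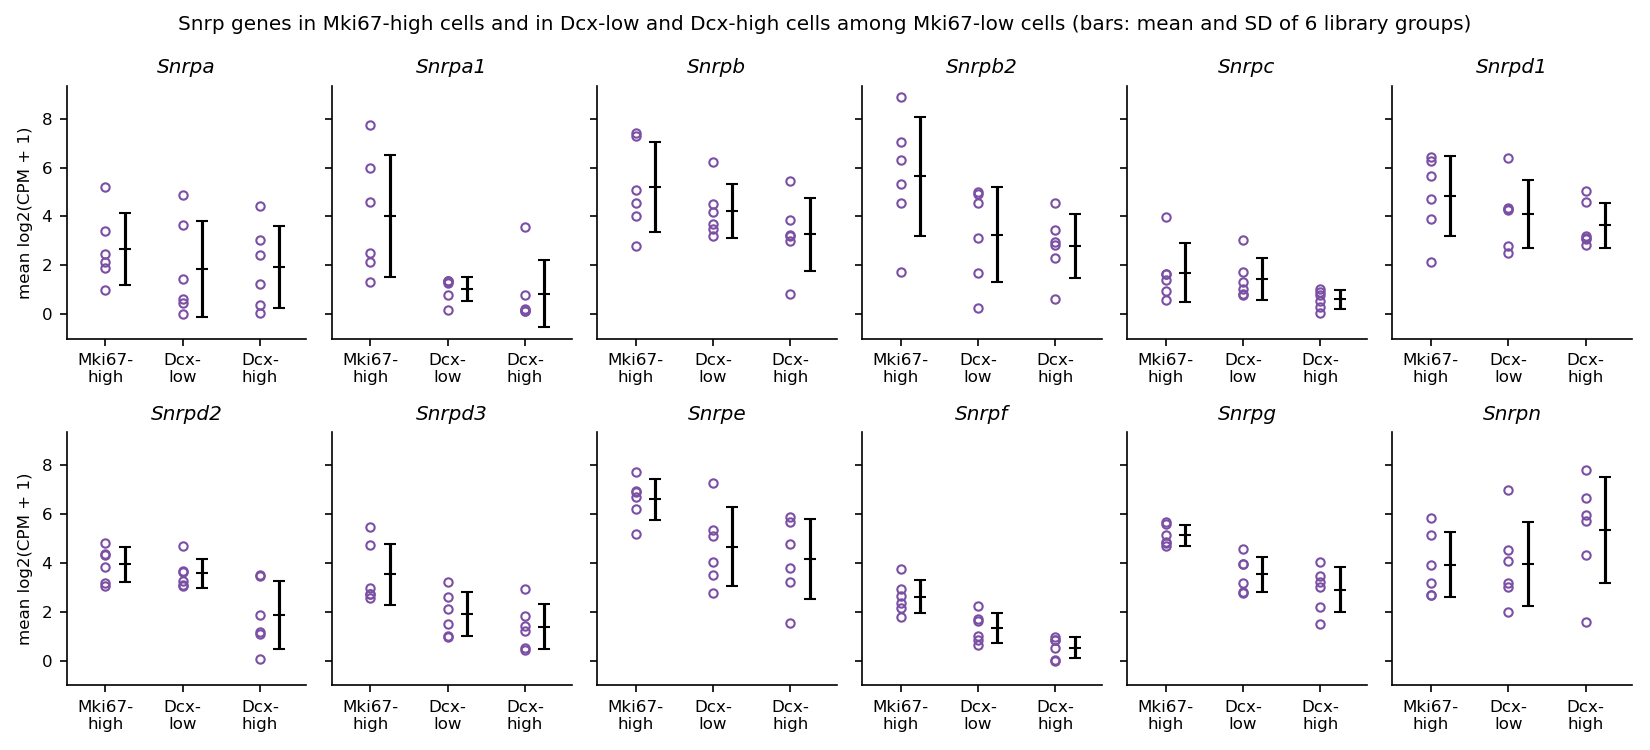
Mean log2(CPM + 1) of the 12 Snrp genes in Mki67-high cells and in the Dcx-low and Dcx-high cells among Mki67-low cells, with one circle for each of 6 library groups and bars for the mean and SD. The means step down from left to right for 10 genes, are lowest in Dcx-low cells for Snrpa and step up for Snrpn, from 3.92 to 5.34.

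Snrpb and Snrpn encode alternative proteins of the same place in the Sm ring, and the order of their mean levels differed between these cells. Snrpb was 5.20 ± 1.84 in Mki67-high, 4.22 ± 1.10 in Dcx-low and 3.26 ± 1.49 in Dcx-high cells, and Snrpn was 3.92 ± 1.32, 3.97 ± 1.72 and 5.34 ± 2.16 (SD, n = 6 library groups). The difference Snrpb minus Snrpn, taken in each cell and averaged by library group, was 1.27 ± 1.78 in Mki67-high, 0.25 ± 2.10 in Dcx-low and -2.07 ± 2.37 in Dcx-high cells. Snrpb exceeded Snrpn in 21 of 32, 22 of 39 and 12 of 36 cells. The pair was chosen after its values were seen, and the library groups overlapped: among Dcx-high cells the difference ran from -5.14 in library group 5 to 1.63 in library group 4.

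Among Mki67-low cells, correlations between the most widely counted of these genes had a median near 0. Over the 75 Mki67-low cells, Spearman correlations between the 14 genes counted in at least 100 cells had a median of 0.04 over 91 pairs and ran from -0.30 for Hnrnpa2b1 with Srsf2 to 0.37 for Hnrnpl with Hnrnpu. The correlation of each gene with the number of genes counted in the cell had a median of 0.15. The cells share library groups and differ in depth, the part of noise in single-cell counts was not tested, and these values are a description.

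The list was then widened to other genes of the splicing machinery. Of 95 such genes, 93 were listed. They were genes of the U1, U2 and U5 snRNPs, the tri-snRNP, the branch point and 3′ splice site, and the Lsm ring. Others were of the Prp19 complex, the exon junction complex and SR protein kinases and related factors. Between Mki67-high and Mki67-low cells, edgeR called 0 of the 92 tested at an adjusted p under 0.01, with 2 higher and 1 lower at an unadjusted p under 0.05, against 2.94% and 4.39% of all genes tested. The mean difference was above 0 for 83 of 93, against 71.6% of all listed genes. It was above 0 in every library group for 16, against 4.78%, and below 0 in every library group for 0, against 0.758%. Among all genes with a count in at least 50% of the cells, 74.2% had a mean difference above 0. In every library group 12.8% of them were higher. The 93 genes were not restricted in this way. Eftud2, the GTPase of the U5 snRNP, was higher in 6 of 6 library groups by 2.35 (log2 fold change in the sums 2.33 ± 0.95, SE, edgeR adjusted p = 0.627). Prpf31 and Prpf8, also of the tri-snRNP, had log2 fold changes of 2.98 ± 1.27 and 1.70 ± 0.89, and Prpf6, Clk1 and Ctnnbl1 had -3.07 ± 1.33, -0.94 ± 0.46 and -3.62 ± 1.99. All 7 Lsm ring genes, whose proteins bind U6, had mean differences above 0, and Lsm3, Lsm4 and Lsm6 were higher in every library group, by 2.25, 2.33 and 2.62.

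Between Dcx-high and Dcx-low cells, 0 of 84 of these genes were called, and 40 of 93 mean differences were above 0 and 53 below, against 43.9% and 54.3% of all listed genes. In every library group 1 gene, Rnps1, was higher, against 0.651%, and 3 genes, Prpf31, Nhp2l1 and Srrm1, were lower, against 1.06%. Prpf31 was lower in Dcx-high cells in 6 of 6 library groups (log2 fold change -5.03 ± 1.72, SE, edgeR adjusted p = 0.998). Dhx38 and Dhx15, helicases of splicing, had log2 fold changes of -5.36 ± 2.15 and -2.89 ± 1.21. Sap18, Prpf39 and Rbm17 had 4.89 ± 2.04, 2.18 ± 1.0 and 3.62 ± 1.98, with an adjusted p of 0.998 in edgeR for each.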

How the data were processed

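Single-cell Smart-seq libraries were analysed from the raw read counts per gene and cell that the authors deposited, one column per cell. Per the paper's methods the reads were aligned to mm10 with STAR 2.4.1d and assigned to genes with HTSeq 0.6.1; the annotation and strand setting are not given in the sources used here. CPM were computed from the column totals. No cell was removed and no doublet caller was run. Library groups came from the sample titles.

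For the tests, counts were summed per class and library group, filtered with filterByExpr, normalized by TMM and compared with the quasi-likelihood test of edgeR 4.0.16 (R 4.3.3), without a block and with Benjamini-Hochberg adjustment. Calls were made at an adjusted p under 0.01, the threshold the study used. Class means of log2(CPM + 1) were differenced within library groups and tested by exact sign flips, two-sided. DESeq2 1.42.0 and limma 3.58.1 served as alternatives. The script was tested on simulated data.

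Genes named in full were, per family and comparison, the 2 with the largest log2 fold changes in each direction, any called, and the highest and lowest per kb. The genes and lists were chosen with earlier results of these data known.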

Additional observations from a re-analysis of the deposited data

Results flagged for a closer look

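Of 39 sets of 6 library group differences examined, 3 held one value far from the other 5, where chance gives about 1 in 20 such sets. For Hnrnpa2b1 the difference in mean log2(CPM + 1) between Mki67-high and Mki67-low cells was 1.70 in library group 3, and 0.54 to 0.87 in the other 5. In library group 3 the means were 10.32 in Mki67-high and 8.62 in Mki67-low cells, and the latter was the lowest of the 6 Mki67-low means. For Snrpa1 the difference between Dcx-high and Dcx-low cells was 2.32 in library group 1, where the other 5 ran from -1.24 to 0.06. For Srsf7 the same difference was -6.86 in library group 5, where the other 5 ran from -1.05 to 0.58, and the Dcx-low cells of library group 5 had the highest Srsf7 mean of the 12 classes, 9.59.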

How the results depend on the processing

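No splicing factor gene was called at an adjusted p under 0.01 under the main edgeR, DESeq2 or limma settings. Over all genes, Mki67-high against Mki67-low gave 2 calls with edgeR, 170 with DESeq2, 6 with DESeq2 size factors, 6 with limma-voom, 114 with limma on class means, 1 without cells of unusual depth, 1 without cells with astroglial genes, 0 with cells lacking Mki67 counts as the low class, 6 at an adjusted p under 0.05, and 0 to 1 when a library group was left out. With library group as a replicate block, edgeR gave 0 calls in both comparisons. Deviations of paired sums from their class means correlated at 0.0029 to 0.056, under the 0.1 taken to show pairing. Dcx-high against Dcx-low gave 0 calls, 53 with DESeq2 and 0 to 0 with a library group left out. The median log2 fold change of the splicing factor genes by Mki67, 0.51, was 0.82 with DESeq2 and with its size factors, 0.23 with limma-voom, 1.19 with limma on class means and 0.39 to 0.70 with a library group left out. Over all genes tested, limma on class means gave a median of 0.43. By Dcx the median of the splicing factor genes was -0.18, -0.72 over all cells at fixed Dcx thresholds and -0.31 to -0.10 with a library group left out. Splicing factor genes with one direction in every library group numbered 13 by Mki67, 3 from the sums and 14 to 21 with a library group left out. By Dcx they numbered 3, 8 over all cells split at the Dcx median and 3 to 7 with a library group left out. Leaving out a library group makes the rule easier to meet, and shares of all listed genes are not given for these alternatives.

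Of 336 alternative log2 fold changes by Mki67 over 21 genes, 304 kept their sign and 32 changed it; by Dcx, 255 of 272 over 16 genes kept it and 17 changed it. None was called, and the cause was not tested. By Mki67, signs changed with limma-voom for Hnrnpa2b1 (-0.26), Sf3b1 (-0.022) and Snrpa (1.54); with the replicate block for Hnrnpul1 (0.13) and Snrpa (0.60); with limma on class means for Hnrnpul1 (1.27), Hnrnpul2 (0.41), Sf3a1 (0.73), Sf3b3 (0.29), Snrpa (0.79), Srsf11 (0.19) and Srsf5 (0.25); and with no Mki67 count in the low class for Hnrnpa2b1 (-0.062), Hnrnpul1 (0.10), Sf3b1 (-0.14), Snrpa (0.96), Snrpc (-0.19) and Srsf5 (0.24). Srsf5 was also above 0 with DESeq2 and its size factors (0.39), without cells of unusual depth (0.059), without cells with astroglial genes (0.049) and in thinned cells (0.13). With a library group left out, values ran from -1.33 to 0.54 for Hnrnpul1, -2.97 to 0.55 for Hnrnpul2, -0.18 to 1.03 for Sf3b1, -2.24 to 0.018 for Snrpa, -0.16 to 3.07 for Snrpc and -1.42 to 0.62 for Srsf5. By Dcx, signs changed with the replicate block for Hnrnpul2 (-2.20) and Snrpa1 (-2.36), with limma-voom (-0.69 and -2.81) and with limma on class means (-0.27 and -0.21). At fixed Dcx thresholds they changed for Sf3b2 (-0.87), Snrpa1 (-1.38), Snrpn (-0.20) and Srsf10 (-0.72), and with all cells split at the Dcx median for Hnrnpd (0.11), Sf3b2 (-0.14), Sf3b4 (-0.85), Snrpa1 (-0.74) and Srsf10 (-0.067). With a library group left out, Snrpa1 ran from -4.32 to 1.37 and Srsf3 from -0.19 to 0.95. DESeq2 size factors moved the median of all genes by Mki67 from -0.18 to 0.09.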
